A study of Mus musculus with 2 samples.

Results

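The genes described here are labelled homeobox developmental regulators, the transcription factors of the *Hoxa*, *Hoxb*, *Hoxc* and *Hoxd* clusters and of the *Pax*, sine oculis (such as *Six3* and *Six6*), *Lhx*, *Dlx*, *Irx*, *Msx*, *Meis*, *Pou* and *Nkx* families. The label follows the gene family, and whether each of these genes, the paired-box *Pax* genes included, encodes a full homeodomain was not checked. The rule that takes them reads the gene symbol alone and no measured value, although the rule itself was set with earlier results of these data known. The choice took 88 of the 17774 genes in the count table, 27 of them *Hox* genes. All but 1 of the 88 are annotated as protein-coding genes. Exons of 31 of them overlap those of another gene, so that reads could be shared. The 1 gene without a coding annotation is *Nkx2-2os*, a noncoding transcript antisense to *Nkx2-2*, which the symbol rule also took. A count in at least 3 cells was found for 76 of the 88 genes, including 23 *Hox* genes, and the descriptions below cover these 76 members. The 12 genes left out (among them *Lhx3*, *Nkx2-4*, *Six5*, *Irx6*, *Hoxb2*, *Irx4*, *Pou5f2*, *Hoxc10*, *Hoxc6* and *Pou5f1*) had at most 4 counts each over both libraries, and together 16 counts in the uninjected library and 8 in the GSK-J4-treated one.

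Both libraries came from *Pde6c*.GFP mice on the C57BL/6 strain, which carry the Pde6ccpfl1 mutation, a model of achromatopsia, together with eGFP under the *Chrnb4* promoter to mark the cones. Retinae were taken at PN24, and GFP-positive cells were sorted into plates, 1 cell per well. The uninjected library came from retinae without an injection. For the GSK-J4-treated (hereafter treated) library, mice had received 10 µM GSK-J4, an inhibitor of the Jumonji H3K27 demethylases, by 1 intravitreal injection at PN14, 10 days before collection. There was no sham-injected library, the number of mice behind each library was not given in the sources used here, and the names of the treated cells hold the word adult although the labels give PN24. Each condition was 1 library on 1 plate, so the plate and the treatment cannot be told apart. No difference has a replicate check, and no test was run. Values are therefore given with 95% intervals, exact Poisson for summed counts and Clopper-Pearson for shares, which cover counting error only.

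The filter kept 82 uninjected and 64 treated cells, with 1113424 and 208578 counts in total, and 54 well names occurred in both libraries. The median cell held 8118 counts (range 860 to 98250) in the uninjected and 2335.5 (range 420 to 15371) in the treated library. The 11 cone markers took 2.59% of the counts in uninjected and 0.213% in treated cells, where 5 of the 11 (*Opn1sw*, *Gngt2*, *Cngb3*, *Pde6c* and *Guca1a*) had no count, so that the cone label was not borne out by the markers in the treated library. Of the 445 cone marker counts there, 428 lay in 3 cells, and the other cells together had 17, or 0.00881% of their counts. Olfactory and vomeronasal receptor genes (symbols starting *Olfr* or *Vmn*), which photoreceptors are not known to use, served as a measure of background. The 396 measured receptor genes took 0.624% of the counts in uninjected and 1.43% in treated cells, a ratio of 2.29 (2.19 to 2.39).

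Homeobox genes encode transcription factors that bind DNA through a homeodomain and set the identity of body segments, organs and neurons during development. In most adult cells many of those that are not in use are kept silent by Polycomb complexes, of which Polycomb repressive complex 2 places trimethylation on lysine 27 of histone H3 and the demethylases KDM6A and KDM6B remove it. In the vertebrate eye *Pax6*, *Six3* and *Six6* act in the early eye field and in some neurons of the mature retina, whereas *Hox* genes pattern the trunk, limbs and hindbrain. Histone marks were not measured in these libraries, so the status of the genes as Polycomb targets rests on textbook knowledge.

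Sequence is shown for 4 members that the results turn on, the eye-field genes *Six6*, *Six3* and *Pax6* and the *Hox* gene *Hoxa9*. Each run holds the 250 bases before the RefSeq transcription start (GRCm38.p6), 5′ to 3′ on the strand of the gene, and capitals mark CG dinucleotides, the bases at which DNA methylation and CpG islands are defined. No base of the 4 windows lies in an annotated exon of the gene in GENCODE M21. The *Six6* window, chr12:72939632-72939881 on the plus strand, holds 17 CG dinucleotides and lies just before the gene, which spans chr12:72939892-72944899. The *Six3* window, chr17:85620584-85620833 on the plus strand, holds 10 and falls in an intron of the longest *Six3* model, which spans chr17:85613608-85629302. The *Pax6* window, chr2:105668646-105668895 on the plus strand, holds 15 and ends just before the gene at chr2:105668900-105697364. The *Hoxa9* window, chr6:52227371-52227620 on the minus strand, holds 3 and falls in an intron of the longest *Hoxa9* model, which spans chr6:52223100-52231089.
Six6: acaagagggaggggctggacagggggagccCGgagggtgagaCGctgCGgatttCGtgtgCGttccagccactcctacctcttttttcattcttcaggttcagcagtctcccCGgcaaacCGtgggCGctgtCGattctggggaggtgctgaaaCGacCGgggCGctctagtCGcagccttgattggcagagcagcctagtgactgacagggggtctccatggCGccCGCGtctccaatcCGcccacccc
Six3: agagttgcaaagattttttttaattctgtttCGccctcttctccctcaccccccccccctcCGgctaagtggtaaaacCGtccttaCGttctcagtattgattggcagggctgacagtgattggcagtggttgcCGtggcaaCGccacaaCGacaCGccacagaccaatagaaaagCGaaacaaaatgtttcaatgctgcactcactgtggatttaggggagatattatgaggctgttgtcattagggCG
Pax6: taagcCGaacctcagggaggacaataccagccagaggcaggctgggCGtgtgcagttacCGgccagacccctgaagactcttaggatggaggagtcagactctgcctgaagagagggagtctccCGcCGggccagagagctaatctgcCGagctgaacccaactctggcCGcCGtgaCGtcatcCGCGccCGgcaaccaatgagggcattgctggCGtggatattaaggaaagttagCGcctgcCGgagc
Hoxa9: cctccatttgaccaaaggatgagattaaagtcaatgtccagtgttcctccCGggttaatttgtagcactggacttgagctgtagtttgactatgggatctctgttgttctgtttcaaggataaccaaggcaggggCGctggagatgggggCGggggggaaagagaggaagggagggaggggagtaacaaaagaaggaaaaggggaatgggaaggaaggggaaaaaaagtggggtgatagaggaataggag

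The RefSeq table held promoters for 60 of the 88 genes, 72 promoters in all. Of these, 54.2% were rich in CG (GC content above 50% and observed over expected CG above 0.6), beside 49.0% of the promoters of all genes in the count table and 0% of those of *Olfr* and *Vmn* genes. GGGCGG was found on either strand in 59.7% of member promoters, beside 49.1% over all genes, and in the *Six6* and *Hoxa9* windows shown above. TATAAA was found on either strand in 9.72% of member promoters, beside 8.43% over all genes, and in none of the 4 windows. These are matches of letters in a fixed window and were not read as binding sites.

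The members together took a larger share of the counts in the treated library. They had 1102 counts, or 0.0990% (0.0932 to 0.105%), in uninjected and 363 counts, or 0.174% (0.157 to 0.193%), in treated cells, a ratio of 1.76 (1.56 to 1.98). The receptor genes used as background had the higher ratio of 2.29, and their interval did not overlap that of the members. Receptor counts were uneven over cells, with 1000 of 6943 in 1 uninjected cell and 331 of 2975 in 1 treated cell. The interval covers counting error only and leaves this unevenness out. Within each library the members' share was alike on both sides of the plate, with 0.0990% and 0.0990% in uninjected and 0.170% and 0.177% in treated cells for columns 1 to 6 and 7 to 12. The ratio depended on the scaling. With median-ratio size factors, which set the median gene found in both libraries equal and lower every ratio of summed counts by 1 common factor, it was 0.988, and that of the receptor genes was 1.29. This scaling leaves out the 2344 genes with no count in treated and the 499 with none in uninjected cells. On that scale the members were not higher in treated cells. Of the families the *Hoxb* (0.848), *Lhx* (0.920), *Meis* (0.794) and *Pou* genes (0.729) moved from above 1 to below 1 as well.

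Most members were close to the limit of detection. The median member had 6 counts in the uninjected and 3 in the treated library, and 20 counts or more were reached by 16 members in uninjected but by 1, *Pou3f1* with 23, in treated cells. No count was found in treated cells for 9 of the 76 members, and *Pax4* and *Dlx4* had none in uninjected cells. On the scale of CPM per kilobase of exon, which sets counts against library total and gene length, the median member lay at 1.57 in uninjected and 3.79 in treated cells, between the median receptor gene (0.833 and 2.91) and, in uninjected cells, the median of all genes (2.45). The median of all genes in treated cells was 3.54. Summed over genes, the members lay below the receptor genes in both libraries, at 3.07 and 5.39 against 3.57 and 7.93 CPM per kilobase of exon. Above the 90th percentile of the receptor genes on this scale lay 13 of 75 members with a length in uninjected cells (17.3%, beside 32.9% of all genes) and 8 of 75 in treated cells (10.7%, beside 14.8% of all genes). *Dlx2*, *Hoxd8*, *Pou3f1* and *Pou3f4* were above it in both libraries, whereas *Six3*, *Six6*, *Meis3*, *Hoxb6*, *Hoxb8*, *Irx2*, *Lhx1*, *Pax8* and *Pou4f1* were above it in uninjected cells alone and *Dlx5*, *Hoxc8*, *Nkx3-2* and *Pax4* in treated cells alone. That a member passed this level in 1 library and not in the other was not tested as a difference.

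**Figure D1:**
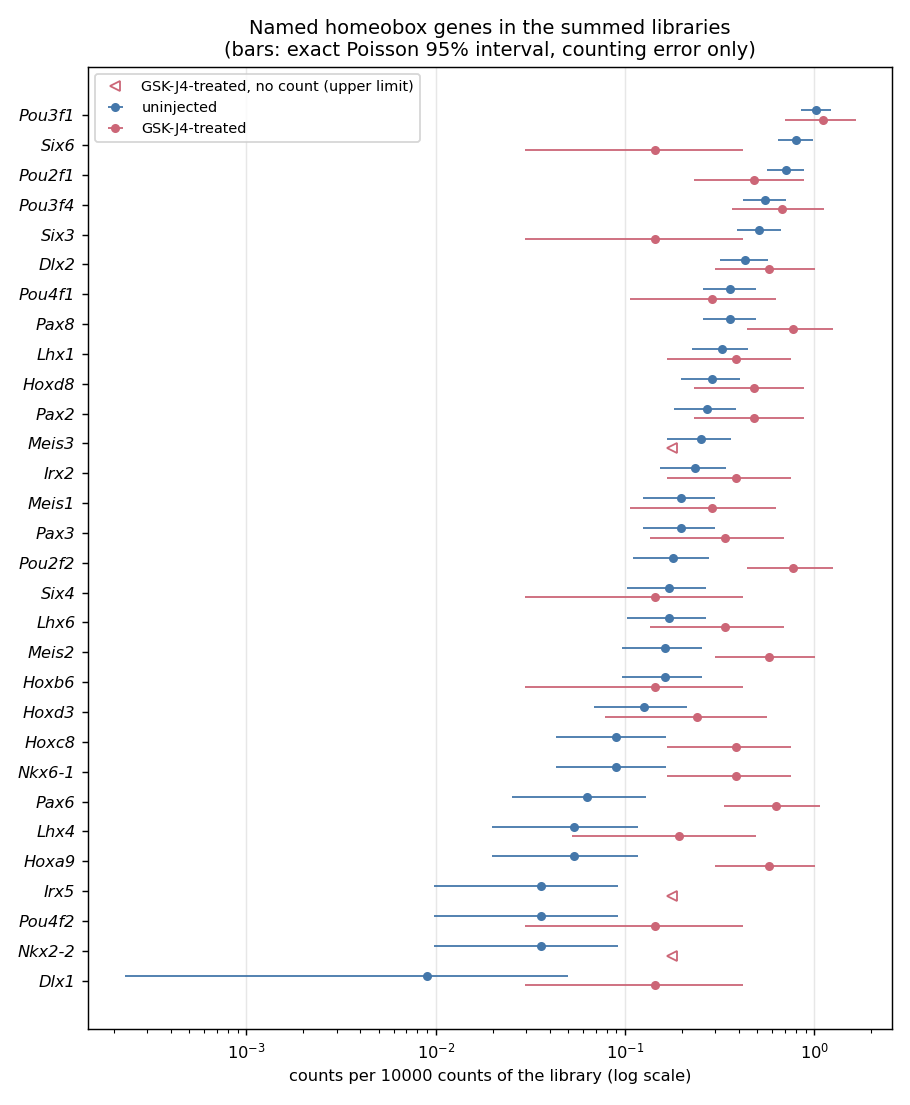
Counts per 10000 counts of the library (log scale) for 30 of the 31 named members in the summed uninjected and GSK-J4-treated libraries, with exact Poisson 95% intervals for counting error only and open triangles for the upper limit where a library had no count. *Six6* lies lower in treated cells (0.144 against 0.799). *Six3* also lies lower (0.144 against 0.512), but its intervals overlap (0.388 to 0.663 in uninjected and 0.0297 to 0.420 in treated cells). *Pax6* and *Hoxa9* lie higher (0.623 and 0.575, against 0.0629 and 0.0539), and for most others the intervals overlap.

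The change of single members was described by the log-fold, the natural log of the mean counts per 10000 plus 1 over treated cells minus that over uninjected cells. Of the 76 members, 9 lay above 0.3, or 11.8%, beside 12.6% of all genes, and 2 lay below -0.3, or 2.63%, beside 11.8% of all genes. The share of members above 0.3 was thus near that of all genes, and the share below -0.3 was smaller. With a pseudocount of 1, a gene near the floor in uninjected cells cannot fall below -0.3. Most members were near that floor, so the smaller share is not read as a result about them. Of the receptor genes 13.6% lay above 0.3 and 0.758% below -0.3. The median log-fold was 0.074 for the members, 0.070 for the receptor genes and 0.033 for all genes. Of the members 55 lay above 0 and 21 below. When each library was summed before scaling, 6 members lay above 0.3 and 1 below -0.3, beside 9.92% and 11.1% of all genes, and 13 members changed sign. With median-ratio size factors 0 members lay above 0.3 and 2 below -0.3, beside 2.82% and 13.9% of all genes.

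The lowest log-fold belonged to *Six6*, and with *Six3* it carried most of the counts of the sine oculis family (*Six2*, *Six3*, *Six4* and *Six6*). Both encode transcription factors of the early eye field. *Six6* had 89 counts in 28 uninjected cells and 3 counts in 3 treated cells, a ratio of 0.180 (0.0364 to 0.543) after scaling to library totals. *Six3* had 57 counts in 18 uninjected cells and 3 counts in 3 treated cells, a ratio of 0.281 (0.0563 to 0.864). In the summed counts both genes were thus higher in uninjected cells, and the counting intervals of both ratios lay below 1. The mean over cells of counts per 10000 had the same order for *Six6* (1.78 and 0.204) but the opposite order for *Six3* (0.262 and 0.417). The other measured genes of the family had few counts, *Six4* with 19 and 3 and *Six2* with 7 and 1. The family took 0.0154% of the counts in uninjected and 0.00479% in treated cells, a ratio of 0.310 (0.146 to 0.585), and was the 1 family with a ratio below 1 (with median-ratio size factors *Hoxb*, *Lhx*, *Meis* and *Pou* were also below 1). A count of any gene of this family was found in 38 of 82 uninjected and 10 of 64 treated cells, and in 9 of 81 and 1 of 50 when each cell was thinned to 867 counts.

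A few cells carried much of this signal. The log-fold of *Six6* was -0.84, and 1 shallow uninjected cell with 14 *Six6* counts among 1409 gave 67.9% of the uninjected mean. Without that cell the log-fold was -0.27, inside the limit, and without the cell of each library with the highest *Six6* share it was -0.38. By plate side it was -0.11 in columns 1 to 6 and -1.25 in columns 7 to 12, or -0.41 in columns 7 to 12 without the same cell. Of the 89 uninjected counts 71 lay in columns 7 to 12. With at least 500 genes per cell it was -0.18, inside the limit. The log-fold of *Six3* was 0.12 over cells and -0.28 over summed libraries, a change of sign that rested on 1 GSK-J4-treated cell with 1 *Six3* count among 454. Without that cell it was -0.16.

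Exons of *Six6* overlap those of 4930447C04Rik on the other strand, which had 114 counts in uninjected and 7 in treated cells. The strand setting of the counting was not given in the sources used here, so the reads of this pair cannot be told apart. Exons of *Six3* overlap those of *Six3os1* and Gm28528 on the other strand, which were not analysed here. In uninjected cells *Six3* and *Six6* were found together in 12 cells, 66.7% of the cells with *Six3* and 42.9% of those with *Six6*. These 12 cells held a median of 33450 counts (range 8071 to 98250), beside 8118 in the median uninjected cell.

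The *Meis* genes, homeodomain cofactors of *Hox* and Pbx proteins, differed among themselves. *Meis2* had 18 counts in 7 uninjected and 12 counts in 10 treated cells, a ratio of 3.56 (1.56 to 7.81) and a log-fold of 0.39. *Meis1* had 22 and 6 counts, a ratio of 1.46 (0.483 to 3.70) whose interval included 1. *Meis3* had 28 counts in 10 uninjected cells and none in treated cells, 1.75-fold lower if 3 counts are set for that library. Its intervals per 10000 counts, 0.167 to 0.363 in uninjected and 0 to 0.177 in treated cells, overlapped. Its log-fold of -0.36 rested on 1 cell with 17 of the 28 counts and was -0.077 without it, and all 28 counts lay in columns 7 to 12 of the plate. The *Meis* family as a whole had a ratio of 1.41 (0.791 to 2.40), whose interval included 1. Without *Six3*, *Six6* and *Meis3*, a choice made after their values were seen, the ratio of the remaining members was 2.05 (1.81 to 2.32).

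**Figure D2:**
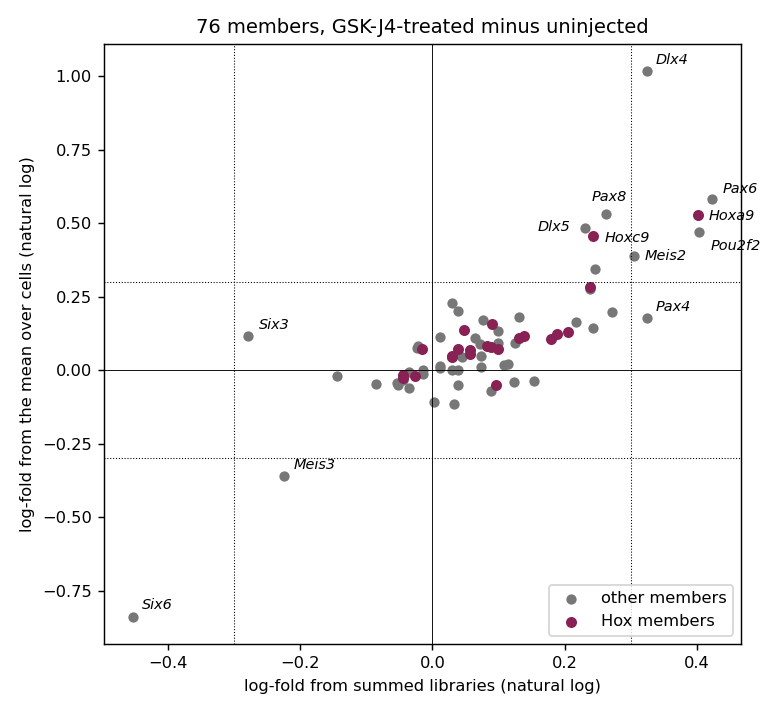
Log-fold of the 76 members from the mean over cells (vertical axis) against that from the summed libraries (horizontal axis), both as natural logs, with dotted lines at -0.3 and 0.3. *Six6* is low and *Pax6*, *Hoxa9*, *Pou2f2* and *Meis2* are high on both axes, *Six3* changes sign (0.12 and -0.28), and *Dlx4* stands at 1.02 over cells but at 0.32 over summed libraries.

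*Pax* genes encode paired-box transcription factors, and *Pax6* is needed for eye formation and is found in amacrine, ganglion and horizontal cells of the mature retina. *Pax6* had 7 counts in 7 uninjected and 13 counts in 11 treated cells, a ratio of 9.91 (3.68 to 29.3) and a log-fold of 0.58, the highest among the named members. A treated cell of 420 counts, with 1 *Pax6* count, gave 42.3% of the treated mean. Without the cell of each library with the highest *Pax6* share the log-fold was 0.38. By plate side it was 0.75 in columns 1 to 6 and 0.39 in columns 7 to 12, or 0.13 in columns 7 to 12 without 1 treated cell. In cells of 1000 to 10000 counts it was 0.29, inside the limit. After thinning *Pax6* had 0 counts in uninjected and 3 in treated cells, too few to read. Markers of amacrine, ganglion and horizontal cells were low in both libraries. Amacrine markers were at 0.00467% and 0.00671% of the counts, ganglion cell markers at 0.00431% and 0.00719% and horizontal cell markers at 0.00979% and 0.0139%. *Onecut2* gave 105 and 28 of the 109 and 29 horizontal cell marker counts. No count was found for 1 of 6 amacrine markers in each library, and each measured ganglion and horizontal cell marker had a count in both. The part of these cells in the *Pax6* counts was not tested.

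*Pax8*, a regulator of thyroid and kidney development, had 40 and 16 counts in 17 and 13 cells, a ratio of 2.14 (1.12 to 3.90) and a log-fold of 0.53. *Pax5*, known from B cells, had 5 and 7 counts and a log-fold of 0.34, which was 0.16 without the cell of each library with its highest share. *Pax4*, known from pancreatic endocrine cells, had no count in uninjected and 8 counts in 5 treated cells. It was 14.2-fold higher if 3 counts are set for the uninjected library, which is not a lower bound. Its intervals per 10000 counts were 0 to 0.0331 in uninjected and 0.166 to 0.756 in treated cells. It passed the filter on genes through treated cells alone. For *Pax2*, a gene of the optic stalk, the 30 and 10 counts gave a ratio of 1.78 (0.776 to 3.74), and for *Pax3*, a gene of the neural crest, the 22 and 7 counts gave 1.70 (0.613 to 4.12). The counting intervals of these last ratios included 1. The 9 *Pax* genes together had a ratio of 2.86 (2.09 to 3.89), or 1.61 with median-ratio size factors. *Pax4* gave none of their 123 uninjected and 8 of their 66 treated counts.

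The *Hox* genes were found at a low level in both libraries and at a higher share in treated cells. The 23 measured genes had 155 counts in uninjected and 86 in treated cells, 0.0139% (0.0118 to 0.0163%) and 0.0412% (0.0330 to 0.0509%), a ratio of 2.96 (2.25 to 3.88). This interval overlapped that of the receptor genes used as background (2.19 to 2.39). In CPM per kilobase of exon, the *Hox* genes lay at 2.08 and 6.15 in the uninjected and GSK-J4-treated libraries, below the receptor genes at 3.57 and 7.93 in both. On the scale of median-ratio size factors the *Hox* ratio was 1.66. A count of any *Hox* gene was found in 36 of 82 uninjected (43.9%) and 36 of 64 treated cells (56.2%), and after thinning to 867 counts in 8 of 81 (9.88%, 4.36 to 18.5%) and 15 of 50 (30%, 17.9 to 44.6%).

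The clusters differed in size of the ratio. *Hoxa* had 21 and 26 counts and a ratio of 6.61 (3.58 to 12.4), *Hoxc* 27 and 18 counts and 3.56 (1.85 to 6.70), *Hoxd* 61 and 29 counts and 2.54 (1.57 to 4.01), and *Hoxb* 46 and 13 counts and 1.51 (0.748 to 2.84). The intervals of *Hoxa* and *Hoxb* did not overlap, while that of *Hoxb* included 1. *Hox* genes are ordered along each cluster by paralogue number, which follows the head-to-tail order of their domains in the embryo. Paralogues 1 to 3 had a ratio of 3.27 (1.75 to 5.98), paralogues 4 to 8 of 1.88 (1.20 to 2.89) and paralogues 9 to 13, which pattern the posterior trunk and the limbs, of 5.06 (3.14 to 8.15). The intervals of the last 2 groups did not overlap. The middle group had the lowest ratio, but its interval overlapped that of paralogues 1 to 3. *Hoxa9* gave 6 and 12 of the 39 and 37 counts of paralogues 9 to 13. *Hoxd8* gave 32 and 10 of the 85 and 30 counts of paralogues 4 to 8, with 14 in 1 uninjected cell. Whether the ratio follows the order along the cluster was not tested.

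*Hoxa9*, known from the posterior trunk and from blood progenitors, had the largest *Hox* log-fold, 0.53, with 6 counts in 2 uninjected cells and 12 counts in 10 treated cells, a ratio of 10.7 (3.71 to 34.7). In uninjected cells 5 of its 6 counts lay in 1 cell, and in treated cells no cell held more than 2. Its log-fold was 0.43 without the cell of each library with its highest share, and it was 0.59 and 0.45 on the plate sides. Its exons overlap the microRNA gene *Mir196b* on the same strand, which was not analysed here. *Hoxc9* had 1 and 6 counts and a log-fold of 0.45, or 0.19 without the cell of each library with its highest share. *Hoxc8* had 10 and 8 counts, a ratio of 4.27 (1.46 to 12) and a log-fold of 0.28, inside the limit. *Hoxd8* had the most *Hox* counts, 32 and 10, of which 14 lay in 1 uninjected cell, and a ratio of 1.67 (0.731 to 3.48). For *Hoxb6* the 18 and 3 counts gave 0.890 (0.168 to 3.05), and for *Hoxd3* the 14 and 5 counts, the latter all from 1 cell, gave 1.91 (0.537 to 5.60). *Hoxc12*, *Hoxc13* and *Hoxd12*, genes of the posterior end, had 5, 3 and 5 counts in uninjected cells and none in treated cells, too few to compare.

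**Figure D3:**
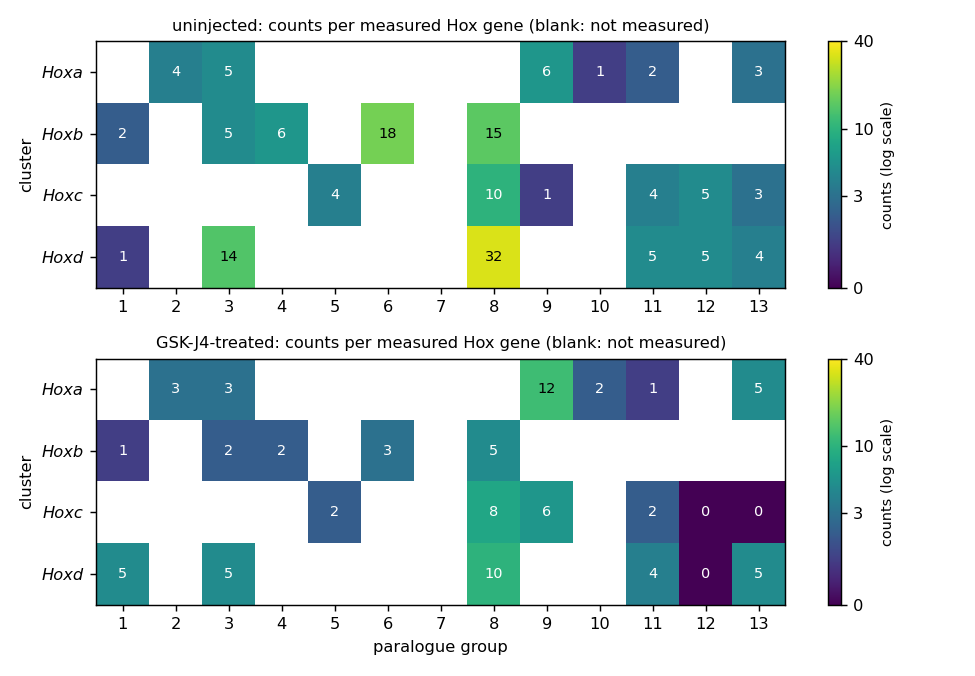
Counts of each of the 23 measured *Hox* genes in the kept cells of the uninjected (top) and treated library (bottom), by cluster (rows) and paralogue group (columns), with colour on a log scale and blanks for genes left out by the filter or not analysed here. *Hoxd8* has the most counts in the uninjected library (32) and *Hoxa9* in the treated library (12), and counts are spread over all 4 clusters in both.

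The *Pou* genes held the most counts of any family, 350 and 85, with a ratio of 1.30 (1.01 to 1.65), or 0.729 with median-ratio size factors, lower than that of the receptor genes on either scale. *Pou3f1*, a regulator of Schwann cells and neurons, was the member with the most counts in both libraries, with 114 counts in 35 uninjected and 23 counts in 17 treated cells, a ratio of 1.08 (0.656 to 1.70). *Pou3f4*, needed in the inner ear, had 61 and 14 counts and a ratio of 1.23 (0.633 to 2.22). *Pou2f1*, a factor found in nearly all cells, had 79 and 10 counts and a ratio of 0.676 (0.312 to 1.31), with 28 counts from 1 uninjected cell. Neither direction was clear for these genes at this depth. *Pou2f2*, known from B cells, had 20 and 16 counts in 14 and 13 cells, a ratio of 4.27 (2.07 to 8.67) and a log-fold of 0.47, though no count of it was left in either library after thinning. *Pou4f1* and *Pou4f2*, markers of retinal ganglion cells, had 40 and 6 counts with a ratio of 0.801 (0.277 to 1.90) and 4 and 3 counts with 4.0 (0.586 to 23.7). The 4 measured members with 1 exon, *Pou3f1* to *Pou3f4*, lay at 8.22 and 9.70 CPM per kilobase of exon, and the members with several exons at 2.73 and 5.11. *Pou3f1* (26.6 and 28.6) and *Pou3f4* (18.7 and 22.9) carried the first values. *Pou3f2* (0.322 and 1.72) and *Pou3f3* (0.485 and 0.647) lay below the members with several exons.

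The *Dlx* genes, which act in interneurons, limbs and the jaw, had 68 and 32 counts and a ratio of 2.51 (1.60 to 3.88). *Dlx2* gave most of these, 48 and 12 counts with a ratio of 1.33 (0.645 to 2.55), of which 16 and 15 lay in 2 uninjected cells, and *Dlx1* had 1 and 3 counts, with exons that overlap those of *Dlx1as* on the other strand (14 and 2 counts). *Dlx5* had 11 and 8 counts and a log-fold of 0.48, or 0.33 without the cell of each library with its highest share. *Dlx4* gave none of the 68 uninjected and 8 of the 32 treated counts behind the family ratio. It had the highest log-fold of all members, 1.02, from no count in uninjected cells and 8 counts in 3 treated cells. It passed the filter on genes through treated cells alone. With 3 counts set for the uninjected library it was 14.2-fold higher, which is not a lower bound. Of its 8 counts 5 came from 1 shallow cell of 454 counts, and without that cell the log-fold was 0.043. Of the 9 members above 0.3, 6 remained above it when the cell of each library with the highest share of the gene was left out. *Dlx4*, *Pax5* and *Hoxc9* did not. With that cell left out of the treated library alone 6 of the 9 likewise remained, and with it left out of the uninjected library alone 0 of the 2 members below -0.3, *Six6* and *Meis3*, did.

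Members of the remaining families were mostly indistinct at this depth. The *Lhx* genes, LIM-homeodomain factors, had a ratio of 1.64 (0.979 to 2.64), with 36 and 8 counts for *Lhx1*, a gene of horizontal cells, 19 and 7 for *Lhx6* and 6 and 4 for *Lhx4*. The *Irx* genes had 1.87 (0.939 to 3.51), with 26 and 8 counts for *Irx2* and 4 and 0 for *Irx5*. The *Nkx* genes had 2.45 (1.41 to 4.13). *Nkx6-1*, known from motor neurons and pancreatic beta cells, had 10 and 8 counts, a ratio of 4.27 (1.46 to 12) and a log-fold of 0.28. *Nkx2-2*, a gene of the ventral neural tube, had 4 counts in uninjected and none in treated cells, too few to compare. *Nkx2-1*, known from lung and thyroid, had 10 and 0, with overlapping intervals (0.0431 to 0.165 and 0 to 0.177 per 10000 counts). The 2 measured *Msx* genes had 3 and 7 counts in all. The 45 members that the naming rule did not take had at most 15 counts in uninjected and 8 in treated cells.

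**Figure D4:**
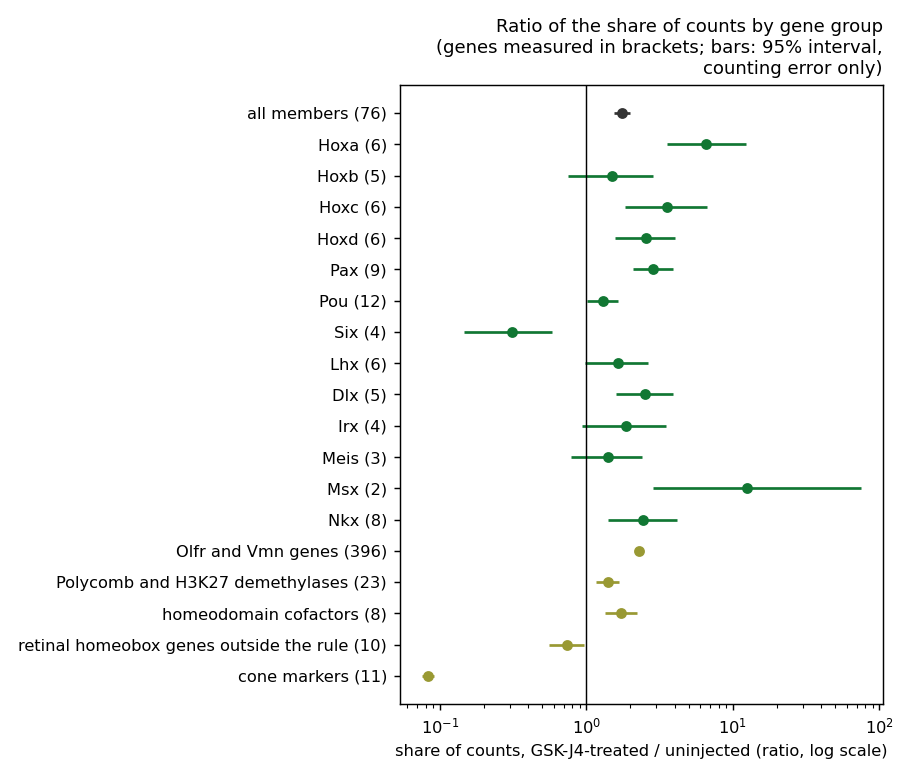
Ratio of the share of counts, GSK-J4-treated over uninjected (log scale), for all members, each family and 5 other gene lists, with 95% intervals for counting error only and the number of measured genes in brackets. The sine oculis family (labelled by its gene symbol, 0.310) is the 1 family below 1 on this scale, *Hoxa* (6.61) and *Msx* (12.5, from 3 and 7 counts) lie highest, the *Olfr* and *Vmn* genes lie at 2.29 and the cone markers at 0.0825.

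Members were spread over many cells in small numbers. No member was found in 11 of 82 uninjected (13.4%, 6.89 to 22.7%) and 7 of 64 treated cells (10.9%, 4.51 to 21.2%), and the median cell had 4.5 and 4 member counts from 3.5 and 3.5 distinct members. The richest cell held 35 distinct members in the uninjected and 18 in the treated library. Within each library member counts followed depth, with a Pearson correlation of the log counts over cells of 0.845 in 82 uninjected and 0.765 in 64 treated cells, given as a description of cells that share a plate. At 867 counts per cell, which left out 1 uninjected and 14 treated cells, no member was found in 39 of 81 (48.1%, 36.9 to 59.5%) and 12 of 50 cells (24%, 13.1 to 38.2%). The members' share was then 0.103% (0.0802 to 0.129%) and 0.152% (0.118 to 0.194%), and these intervals overlapped.

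In treated cells the share of member counts was nearly the same at every depth, 0.182% in cells under 2000 counts, 0.179% in cells of 2000 to 5000 and 0.168% in deeper cells. In uninjected cells it was 0.132% (0.0872 to 0.192%), 0.0617% (0.0410 to 0.0892%) and 0.0999% (0.0940 to 0.106%) in the same order. The 27 member counts in the shallow uninjected cells include the 14 *Six6* counts of the 1 cell described above. The receptor genes took 0.480%, 0.981% and 0.611% in these uninjected cells and 1.66%, 1.51% and 1.29% in the treated cells, and their part in the members' share was not tested.

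**Figure D5:**
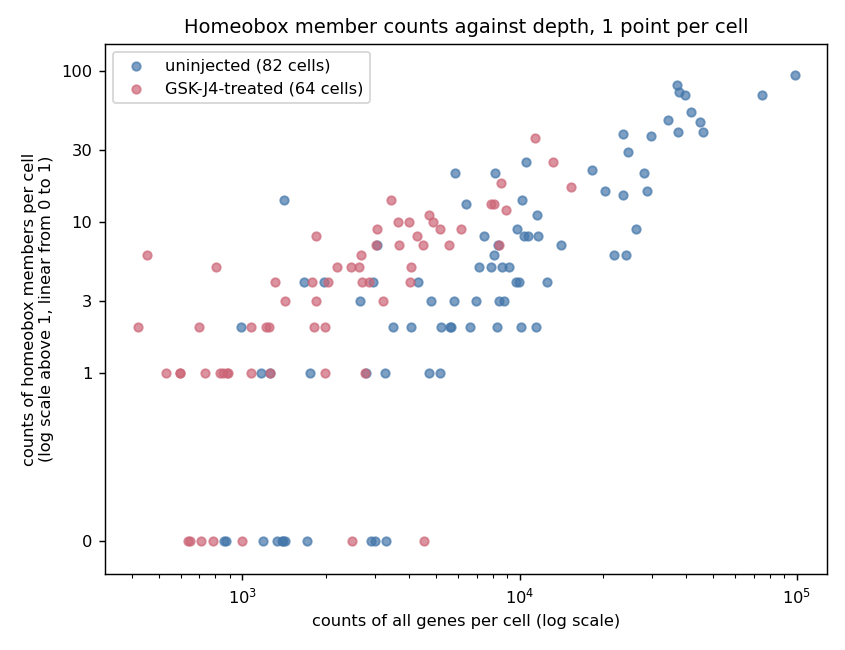
Counts of the 76 members per cell (log scale above 1) against counts of all genes per cell (log scale), 1 point for each of 82 uninjected and 64 treated cells. Member counts grow with depth in both libraries, and the treated cells lie at lower depth (median 2335.5 against 8118 counts).

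Other genes of the pathway were read from gene lists chosen by known function. Among 23 measured Polycomb genes and H3K27 demethylases, 4 lay above 0.3 (*Jarid2*, *Pcgf5*, *Rbbp4* and *Eed*) and 1 below -0.3 (*Ring1*). These were 17.4% and 4.35%, beside 12.6% and 11.8% of all genes, and the list's ratio was 1.40 (1.17 to 1.67). Over summed libraries 3 lay above 0.3 (*Jarid2*, *Pcgf5* and *Cbx6*) and 2 below -0.3 (*Ring1* and *Rbbp4*), beside 9.92% and 11.1% of all genes. *Eed* was then at 0.23, inside the limit. *Rbbp4*, a histone-binding subunit with 87 and 5 counts, was at 0.31 over cells but at -0.36 over summed libraries. *Kdm6a* and *Kdm6b*, the demethylases that GSK-J4 inhibits, had 7 and 9 counts with a log-fold of 0.21 and 96 and 13 counts with a log-fold of -0.13. *Ezh2*, the methyltransferase of Polycomb repressive complex 2, had 5 and 5 counts with a log-fold of 0.25. *Jarid2*, a subunit that recruits this complex, had 34 and 18 counts with a log-fold of 0.63, and *Ring1*, a ubiquitin ligase of Polycomb repressive complex 1, had 66 and 0 counts with a log-fold of -0.48. Of the 8 homeodomain cofactors (*Pbx*, *Pknox* and *Tgif* genes), 2 lay above 0.3 (25%, beside 12.6% of all genes) and 0 below -0.3 (beside 11.8%), with a ratio of 1.73 (1.34 to 2.22). Over summed libraries 1 lay above 0.3 and 1 below -0.3, the latter *Pbx3* (129 and 10 counts) at -0.38. Beside the members stand 10 measured retinal homeobox genes that the symbol rule did not take, with a ratio of 0.738 (0.554 to 0.968). Of these, 1 lay above 0.3 (10%) and 2 below -0.3 (20%), beside 12.6% and 11.8% of all genes. *Crx*, which drives photoreceptor genes, had 122 and 2 counts and a log-fold of -0.96, and *Rax*, a gene of the early eye field as are *Six3* and *Six6*, had 91 and 0 counts and a log-fold of -0.66. Of 5 noncoding transcripts at member loci, with 26 and 15 counts, 1 lay above 0.3 (*Hoxaas3*, 1 and 4 counts) and 1 below -0.3 (*Dlx1as*). Each was 20% of the list, beside 12.6% and 11.8% of all genes.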

How the data were processed

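Single GFP-positive cells of 1 uninjected and 1 GSK-J4-treated library were sequenced. Raw UMI counts were deposited by the authors as 1 whole number for each gene in each cell, after alignment in the CLC Genomics Workbench 20, removal of PCR duplicates by an 8-nt UMI and counting with featureCounts on Gencode M17. The genome is named GRCh38 Mus-Musculus, a human build number, in the study's methods, and the strand setting was not given in the sources used here. The authors' batch correction was not applied.

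The filter required 3 cells with a count for a gene, and for a cell 200 genes and no more than 5% of counts from mitochondrial genes, which removed 1827 genes, 3 uninjected and 2 GSK-J4-treated cells. No doublet caller was run. Cells were scaled to 10000 counts with a pseudocount of 1 (Python 3.11.15, pandas 2.3.3, numpy 2.4.6, scipy 1.17.1), and the calculation was tested on simulated counts. Since cells are not replicates, genes beyond 0.3 log-fold were counted by size alone. Cells were thinned to 867 counts, the 10th percentile. Coordinates and exon lengths are from GENCODE M21 on GRCm38. Named members had a count in at least 10% of cells or 20 counts in either library, or a textbook role in the retina. Members, lists and settings were chosen with earlier results of these data known. *Dlx4*, *Dlx5*, *Hoxc9*, *Pax4*, *Pax5*, *Nkx2-1*, *Six2*, *Hoxb8*, *Nkx3-2* and the posterior *Hox* genes with no count fall outside this rule and were named after their values were seen. A planned search for the homeodomain in the members' proteins was not run, since no protein table was used here. A few members are counted in the totals but not reported here by name. The alternatives tried are given in the closing section.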

Additional observations from a re-analysis of the deposited data

How the results depend on the processing

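With 1 library per condition every value is limited by depth, and most members had too few counts to set a direction. The number of members above 0.3 log-fold, 9 in the main setting, was 0 with median-ratio size factors and 45 with a pseudocount of 0.1, where 44.1% of all genes and 59.2% of members lay above 0.3. The number below -0.3, 2 in the main setting, was 1 with summed libraries, 1 with at least 500 genes per cell, 1 in columns 1 to 6, 5 after thinning and 8 with a pseudocount of 0.1. Of all genes 11.1%, 11.8%, 13.02%, 13.9% and 28.2% lay below -0.3 in these settings, in the same order, against 1.32%, 1.32%, 1.32%, 6.58% and 10.5% of the members. Low uninjected counts limit how many members can fall below -0.3 here as well. The members below -0.3 were not the same throughout. The 1 was *Six6* with summed libraries (-0.45), *Meis3* with at least 500 genes per cell (-0.40) and *Pou2f1* in columns 1 to 6 (-0.36). With median-ratio size factors the 2 were *Six6* (-0.50) and *Six3* (-0.33). The median log-fold was 0.37 with a pseudocount of 0.1. The ratio of the members' share, 1.76, was 0.988 with median-ratio size factors, 1.49 after thinning, 2.09 in cells of 1000 to 10000 counts and 2.04 as a mean over cells. The *Hox* ratio was 1.66 with median-ratio size factors and between 2.55 and 3.82 elsewhere. The cause of these shifts was not tested. Cells of 1000 to 10000 counts, the mean share over cells and leaving out the cell with the highest share of a gene, in each library or in 1 alone, were added after seeing the data. Of the 31 named members, 14 changed sign with median-ratio size factors, 8 in columns 1 to 6, 8 without the cell with the highest share, 7 with summed libraries and 7 with at least 500 genes per cell, though none of those beyond 0.3 did. Summing the libraries and the pseudocount do not apply to shares, which are already sums. No paired analysis was possible because each condition was 1 library.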

Other observations

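Marker lists of other retinal cells were summed in both libraries. The share of rod markers was 0.255% in uninjected and 0.0201% in treated cells, a ratio of 0.0789 (0.0568 to 0.107), and Müller glia markers 0.0857% and 0.0336%, a ratio of 0.392 (0.303 to 0.50). *Apoe* gave 762 and 40 of these Müller glia counts, and the other 6 markers, with 192 and 30 counts, had a ratio of 0.834 (0.548 to 1.23). For bipolar cell markers the shares were 0.00629% and 0.0120%. For microglia they were 0.000898% and 0.00336%, and for the retinal pigment epithelium 0.00126% and 0.00144%. The bipolar ratio was 1.91 (1.16 to 3.05), with *Trpm1* (6 and 14 counts) and *Vsx1* (4 and 7) higher and *Grm6* (24 and 1) and *Prkca* (36 and 3) lower in treated cells. The intervals of the ratios of the amacrine (1.44, 0.736 to 2.63), ganglion (1.67, 0.868 to 3.03) and horizontal lists (1.42, 0.909 to 2.16) included 1. The part of these cells in the members' counts was not tested.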
